A study of Mus musculus with 22 samples.

Results

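Genes named for the beta-defensins (Defb), the whey acidic protein four-disulfide core proteins (Wfdc) and the Pate proteins were examined together with Gpx5, Adam7, Serpina16 and Serpina1f in white fat of male mice. They were taken by gene symbol: every measured gene called Defb, Wfdc or Pate followed by a number (with a or b allowed after a Wfdc number), plus those 4 single genes. This gave 71 of the 19337 genes with a symbol: 39 Defb, 18 Wfdc, 10 Pate and the 4 single genes. The set was proposed after high levels of such genes had been seen in epididymal fat, so their levels in that depot are described here without a test.

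Whole-transcript arrays measured 22 fat samples of C57BL/6J bone marrow chimeras, which were given 6 weeks for the marrow to reconstitute and then 14 weeks of a high-fat diet (fat supplied 60% of the calories). Epididymal white fat (epiWAT) had 4 arrays each with wild-type (WT), Gipr-/- and Gipr-/-S100a9-/- (double-knockout) marrow, and inguinal subcutaneous white fat (ingWAT) had 4, 3 and 3. Gipr encodes the receptor of the gut hormone GIP and S100a9 a calcium-binding protein of myeloid cells. Both losses were in the transplanted marrow. The recipients of WT and Gipr-/- marrow were WT, while the recipient of double-knockout marrow and the age of the mice are not given in the sources used here. Adipocyte genes were high throughout: Cidec (a lipid droplet protein), Retn (resistin) and Lpl (lipoprotein lipase) read between 15.3 and 19.4 on the log2 scale in all 12 epiWAT arrays. Arrays are numbered within their group, and the numbers pair nothing.

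The epididymis is the coiled duct in which sperm mature, and in male mice the epididymal fat pad lies against it. Its epithelium secretes a different mixture of proteins in each stretch of the duct. Beta-defensins are small cationic antimicrobial peptides, of which the epididymal ones also coat sperm. Wfdc proteins are small secreted proteins, several of them protease inhibitors, and Pate proteins are small cysteine-rich secreted proteins of the male tract. Gpx5 is a secreted glutathione peroxidase best known from the head of the epididymis, Adam7 is a membrane protein passed to sperm there, and Serpina16 and Serpina1f belong to the serpin family.

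The bases just before the start of 7 members are shown because these genes, some of them neighbours, took different courses across the arrays, as described below. They are the 100 bases before the transcript start in RefSeq's promoter table (GRCm38.p6), 5′ to 3′ on the gene's strand, and were chosen after the values were seen. Capitals mark TGTTCT, the reverse complement of AGAACA, which is a half-site of the androgen and glucocorticoid receptors.
Gpx5, chr13:21292687-21292786, minus strand: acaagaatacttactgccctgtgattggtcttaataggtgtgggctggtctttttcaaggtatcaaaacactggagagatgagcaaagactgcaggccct
Serpina16, chr12:103676763-103676862, minus strand: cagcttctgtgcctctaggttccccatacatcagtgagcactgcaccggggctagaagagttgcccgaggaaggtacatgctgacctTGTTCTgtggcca
Serpina1f, chr12:103695530-103695629, minus strand: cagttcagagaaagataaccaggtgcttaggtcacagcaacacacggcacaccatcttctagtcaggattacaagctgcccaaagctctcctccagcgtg
Defb47, chr14:62997977-62998076, plus strand: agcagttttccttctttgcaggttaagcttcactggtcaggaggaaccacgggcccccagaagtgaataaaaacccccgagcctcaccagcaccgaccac
Defb43, chr14:63011671-63011770, plus strand: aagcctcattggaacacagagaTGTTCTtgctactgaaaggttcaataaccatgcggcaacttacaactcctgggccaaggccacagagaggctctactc
Wfdc15a, chr2:164200118-164200217, minus strand: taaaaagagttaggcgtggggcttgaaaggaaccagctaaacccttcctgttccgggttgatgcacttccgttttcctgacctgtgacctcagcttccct
Wfdc15b, chr2:164221664-164221763, minus strand: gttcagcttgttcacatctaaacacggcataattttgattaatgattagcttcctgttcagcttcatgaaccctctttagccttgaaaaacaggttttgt
Within these 100 bases the motif lay before Serpina16 and Defb43 and not before the other 5 genes.

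The promoter table held 53 of the 71 members, in 57 windows. AGAACA on either strand lay within the 250 bases before the start in 14 of 38 windows (36.8%) of members that exceeded the ingWAT range as defined in the next paragraph, in 4 of 19 windows (21.1%) of members that did not, and in 16.1% of all 32851 promoter windows. TATAAA, sought on the gene's strand alone, lay in 15.8% of the windows of both kinds of member and in 7.59% of all windows. Between 40 and 16 bases before the start, where a TATA box usually lies, it was in 2 of 38 windows (5.26%) of members over, in 3 of 19 (15.8%) of members not over and in 1.99% of all windows. These shares count letters only. A match is no evidence of binding, and no test was made.

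In each epiWAT array a gene was counted as over the ingWAT range when its value was at least 2 log2 units (4-fold) above the highest of its 10 ingWAT values. By this count 44 of the 71 members (26 of 39 Defb, 10 of 18 Wfdc, 4 of 10 Pate and all 4 single genes) were over in at least 1 epiWAT array, where 7.19% of all genes were. The member just inside was Defb36, whose highest epiWAT value was 3.17 above its highest ingWAT value, and the one just outside was Pate10 at 1.78. Counted the other way, with ingWAT against the highest epiWAT array, 0 members were over, where 2.78% of all genes were. Because levels in epiWAT led to the choice of these genes, the counts are a description of where and how strongly they were detected.

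The difference between a gene's highest epiWAT and highest ingWAT value had a median of 4.91 over the members and of -0.03 over all genes. Gpx5 had the largest such difference of all 19337 genes, 12.86, followed among the members by Adam7 (12.69), Serpina16 (12.37), Defb38 (12.21), Serpina1f (12.09) and Wfdc16 (12.02). Members filled 8 of the first 10, 19 of the first 50 and 27 of the first 100 places.

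**Figure D1:**
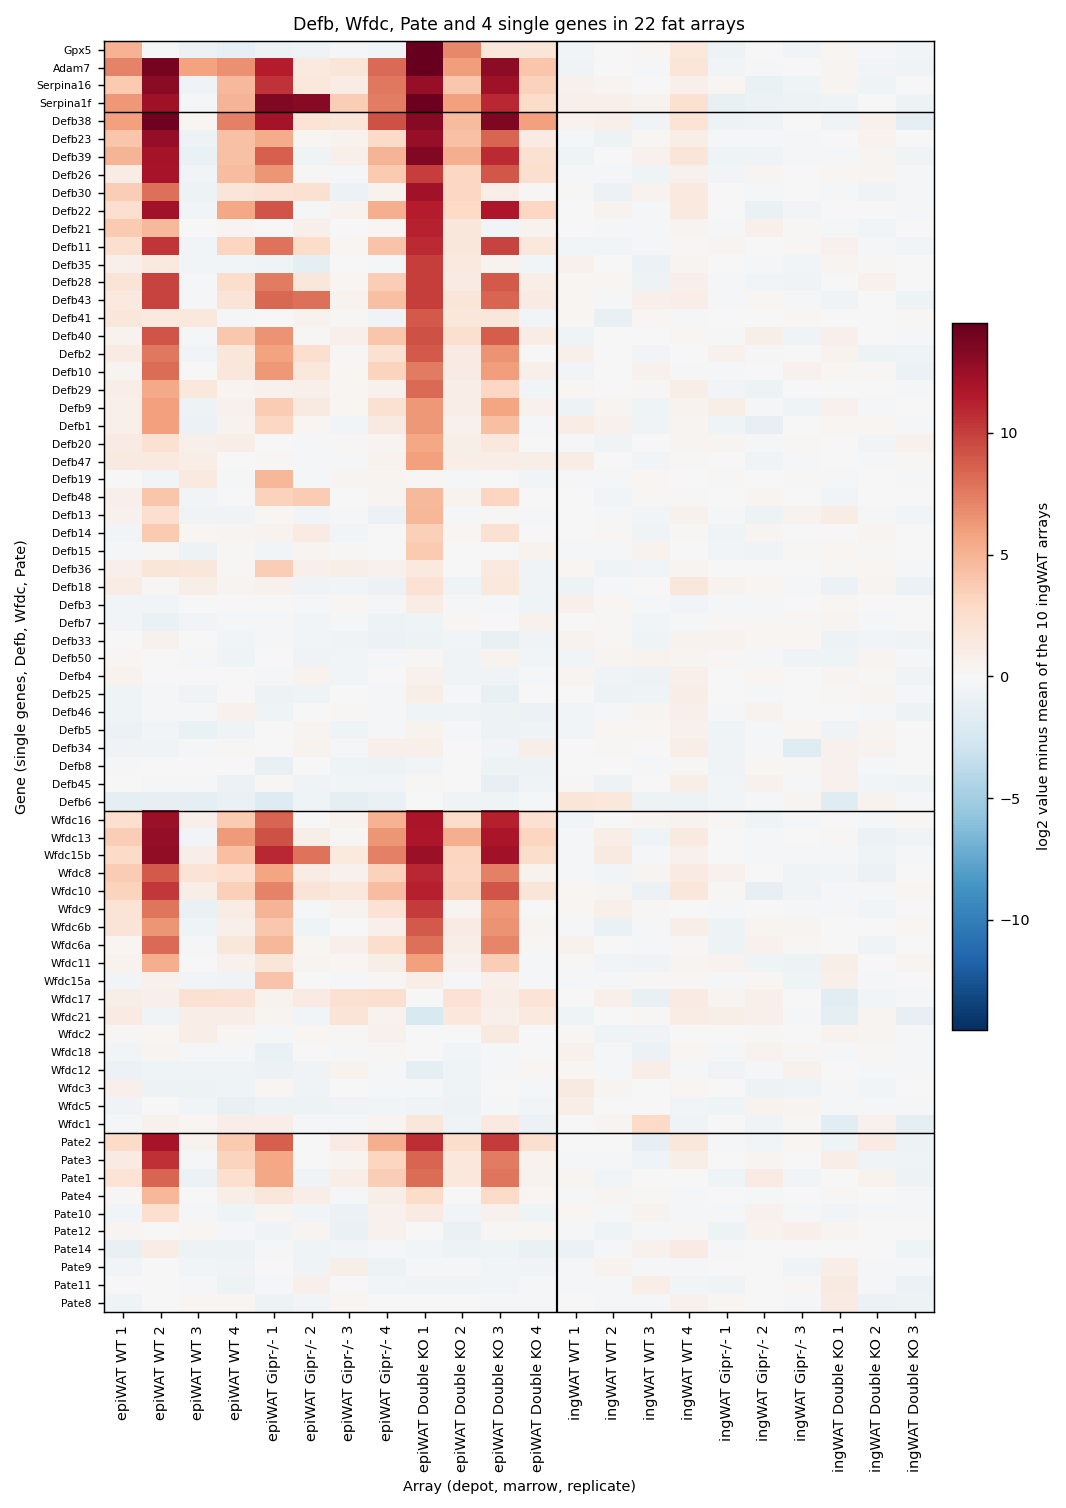
Colour gives each gene's log2 value minus its mean over the 10 ingWAT arrays; rows are the 71 genes in 4 blocks (single genes, Defb, Wfdc, Pate) and columns the 12 epiWAT and then the 10 ingWAT arrays. Dark red cells gather in WT array 2, Gipr-/- array 1 and double-knockout arrays 1 and 3, and the lower rows of each family stay pale.

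The arrays differed far more than the kinds of marrow did. With WT marrow, members over the ingWAT range numbered 11 in array 1 (0.331% of all genes were over there), 34 in array 2 (2.46%), 1 in array 3 (0.879%) and 15 in array 4 (0.259%). With Gipr-/- marrow they numbered 31 in array 1 (4.42%), 5 in array 2 (1.03%), 0 in array 3 (0.114%) and 20 in array 4 (0.527%). With double-knockout marrow they numbered 41 in array 1 (3.05%), 10 in array 2 (0.176%), 31 in array 3 (2.28%) and 3 in array 4 (0.0672%). Each kind of marrow thus held arrays with many members over and arrays with 5 or fewer. Without WT array 2, Gipr-/- array 1 and double-knockout arrays 1 and 3, an alternative chosen after seeing the data, 25 members were still over in at least 1 of the 8 other arrays.

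**Figure D2:**
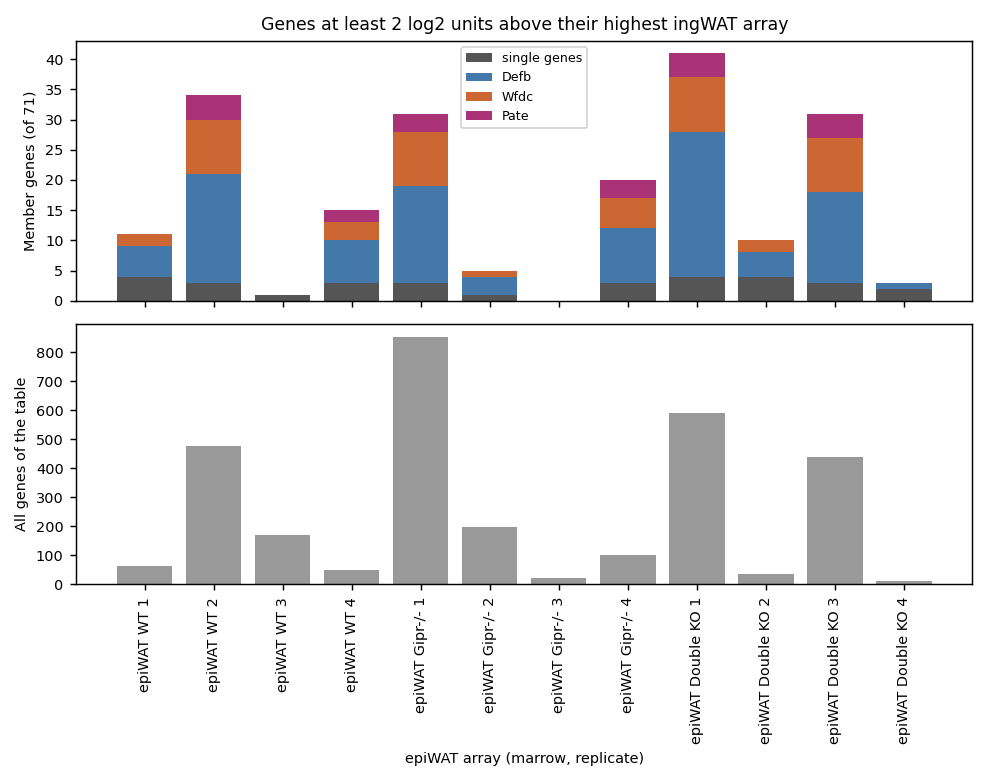
Upper bars count the members, stacked by family, and lower bars count all genes that were at least 2 log2 units above their highest ingWAT value in each epiWAT array. Member counts run from 0 in Gipr-/- array 3 to 41 in double-knockout array 1; Gipr-/- array 1 has the most genes in all, 854, with 31 members.

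Each gene was also set against its own ingWAT mean, and these differences were averaged over all 71 members. In epiWAT the average was 1.22, 4.61, 0.06 and 1.28 log2 units in the WT arrays. It was 3.04, 0.72, 0.25 and 1.68 in the Gipr-/- arrays and 5.48, 1.19, 3.76 and 0.59 in the double-knockout arrays. The 10 ingWAT arrays lay between -0.28 and 0.54, the highest being WT array 4. Group means in epiWAT were 1.79 ± 1.96 (SD, n = 4) for WT marrow, 1.42 ± 1.23 (SD, n = 4) for Gipr-/- marrow and 2.75 ± 2.28 (SD, n = 4) for double-knockout marrow, so the spread within a group was close to the size of its mean. In these whole-tissue samples, more cells of a kind and more RNA per cell cannot be told apart.

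Of the single genes, Gpx5 was over in the fewest epiWAT arrays, 3 of 12. In epiWAT it read 9.61, 4.30, 3.66 and 3.40 in the WT arrays, 3.77, 4.04, 4.32 and 4.21 in the Gipr-/- arrays, and 18.94, 11.50, 6.17 and 6.32 in the double-knockout arrays. The 10 ingWAT arrays read 3.85 to 6.08, median 4.40. Gpx5 was therefore within or below the ingWAT range in WT array 2 and Gipr-/- array 1, where 34 and 31 of the 71 members were over, and was high in WT array 1 and double-knockout arrays 1 and 2.

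Adam7 read 10.84, 17.54, 9.50 and 10.36 in the WT arrays, 15.05, 5.11, 5.41 and 11.85 in the Gipr-/- arrays and 18.09, 9.73, 16.62 and 7.70 in the double-knockout arrays, against 3.19 to 5.39 in ingWAT. It was over the ingWAT range in 10 of the 12 epiWAT arrays, more than any other member, and in all 4 arrays with WT marrow. In WT array 3 it was the 1 member over.

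Serpina16 read 8.02, 17.27, 3.72 and 8.91 in the WT arrays, 14.63, 5.70, 5.29 and 11.78 in the Gipr-/- arrays and 16.82, 8.03, 16.42 and 7.51 in the double-knockout arrays (3.23 to 4.91 in ingWAT). Serpina1f read 10.87, 16.83, 4.20 and 9.41 in the WT arrays, 17.99, 17.69, 8.12 and 11.98 in the Gipr-/- arrays and 18.79, 10.52, 15.48 and 7.20 in the double-knockout arrays (3.50 to 6.70 in ingWAT). The 2 serpins parted in Gipr-/- array 2, where Serpina1f stood near its highest value and Serpina16 was less than 1 log2 unit above its highest ingWAT value.

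**Figure D3:**
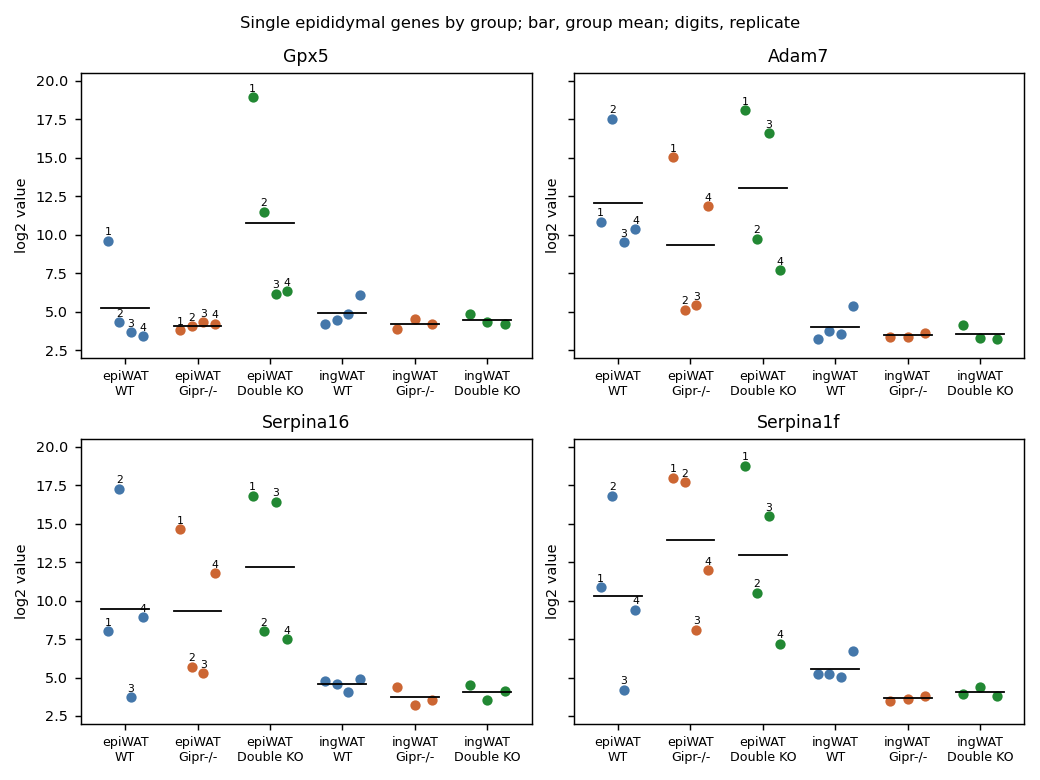
Each panel shows the log2 value of 1 gene in every array by depot and marrow, with the replicate number beside epiWAT points and a bar at the group mean. Gpx5 stands at 9.61 in WT array 1 and at 18.94 and 11.50 in double-knockout arrays 1 and 2, while the other 3 genes are also high in WT array 2, Gipr-/- array 1 and double-knockout array 3.

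Among the beta-defensins, Defb38 read 10.52, 18.75, 4.85 and 11.86 in the WT arrays, 16.71, 6.59, 6.42 and 13.78 in the Gipr-/- arrays and 17.85, 9.22, 18.15 and 10.54 in the double-knockout arrays, against 3.24 to 6.54 in ingWAT. Defb39 followed a like course, with 16.88 in WT array 2, 13.48 in Gipr-/- array 1 and 18.18 and 15.62 in double-knockout arrays 1 and 3. Defb22, whose product coats sperm, read 16.75, 13.74, 16.04 and 16.35 in those 4 arrays. In WT array 3 all 3 genes were within or below their ingWAT range.

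Defb23 reached 16.98 in WT array 2 and 16.90 in double-knockout array 1 but 9.68 in Gipr-/- array 1. Defb26 was higher in WT array 2 (15.40) than in double-knockout array 1 (13.49). Defb30 read 17.92 in double-knockout array 1, 13.79 in WT array 2 and 9.37 in WT array 1, but 7.87 in Gipr-/- array 1 and 6.71 in double-knockout array 3, where its highest ingWAT value was 7.06. The leading defensins thus did not keep 1 ratio to each other across the arrays.

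At the low end of the family, 13 of 39 Defb genes were over in no array. Defb45 read 3.93 to 5.34 in epiWAT and 4.46 to 5.97 in ingWAT, and Defb6 read 3.08 to 5.04 in epiWAT and 3.19 to 6.74 in ingWAT. Both overlapped between the depots.

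In the Wfdc family, Wfdc16 read 6.57, 16.62, 4.85 and 7.82 in the WT arrays, 12.53, 4.05, 4.66 and 9.13 in the Gipr-/- arrays and 15.92, 6.83, 15.34 and 6.30 in the double-knockout arrays, against 3.53 to 4.61 in ingWAT. Wfdc13 reached 18.51 in WT array 2, 17.60 in double-knockout array 3 and 17.47 in double-knockout array 1. Wfdc15b reached 17.15, 16.50 and 16.90 in the same 3 arrays and 12.17 in Gipr-/- array 2, where Wfdc16 stood at 4.05. Wfdc8, Wfdc9 and Wfdc10 had their highest values in double-knockout array 1, at 14.64, 14.54 and 16.25.

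The 8 Wfdc genes over in no array included several that are known from other cells. Wfdc17, known from activated macrophages, read 7.88 to 10.18 in epiWAT and 6.40 to 9.13 in ingWAT, and Wfdc21 read 8.16 to 12.28 and 9.07 to 11.51. For both genes the lowest epiWAT value was that of double-knockout array 1, which held the highest value of 26 of the 44 members over the ingWAT range (33 of all 71) and where the macrophage list described below was lowest. Wfdc2, a gene of many epithelia whose human form was first described in the epididymis, read 3.32 to 4.77 in epiWAT and 2.80 to 4.03 in ingWAT. Wfdc5 and Wfdc1 lay lowest by the difference between highest values, at -0.93 and -1.18.

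Of the Pate genes, Pate2 read 8.26, 17.49, 5.95 and 9.30 in the WT arrays, 14.17, 5.52, 6.70 and 10.80 in the Gipr-/- arrays and 16.16, 8.04, 15.63 and 7.83 in the double-knockout arrays, against 4.32 to 7.14 in ingWAT. Pate3 reached 14.40 and Pate1 11.91 in WT array 2. Pate4, also known as a seminal vesicle secretory protein, was highest in WT array 2 at 8.38 and read 6.21 and 6.32 in double-knockout arrays 1 and 3. Pate1, Pate2, Pate3 and Pate4 thus all had their highest value in WT array 2. The other 6 were over in no array: Pate10 reached 5.69 in WT array 2 (2.87 to 3.90 in ingWAT), and Pate12, Pate11 and Pate8 had highest epiWAT values at or below their highest ingWAT values, with differences of -0.01, -0.51 and -0.90.

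The array with the highest value was double-knockout array 1 for 26 of the 44 members over the ingWAT range, WT array 2 for 15 and Gipr-/- array 1 for 3. Over all genes these 3 arrays held the highest epiWAT value of 11.7%, 6.41% and 11.0%. Of the sum of squares of a member over the 12 epiWAT arrays, the part lying between kinds of marrow had a median of 11.1% for these 44 members and of 15.7% for all genes. It was 42.9% for Gpx5, 13.2% for Adam7, 11.0% for Serpina1f and 8.0% for Serpina16.

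Sorted after their values were seen, by which of 3 arrays they were over in, the 44 members fell into 4 sets. The first set held 23 members over in double-knockout array 1 and Gipr-/- array 1 but not in Gipr-/- array 2, among them Adam7, Serpina16, Defb38, Defb39, Defb22, Wfdc16, Wfdc13 and Pate1 to Pate3. All 23 were also over in WT array 2 and in double-knockout array 3. Their median above the ingWAT mean was 10.23 in WT array 2, 10.10 in double-knockout array 1, 8.79 in double-knockout array 3 and 6.41 in Gipr-/- array 1, and it was between -0.36 and 0.54 in WT array 3 and Gipr-/- arrays 2 and 3.

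A further 5 members, Serpina1f, Defb11, Defb43, Defb48 and Wfdc15b, were over in Gipr-/- array 2 as well. Their median above the ingWAT mean was 7.84 there, against 0.24 for the set of 23. Defb43 read 11.58 and Defb48 7.93 in that array. No other member was over in it.

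Another set of 13 members was over in double-knockout array 1 and not in Gipr-/- array 1: Gpx5, Defb13, Defb14, Defb15, Defb20, Defb21, Defb29, Defb30, Defb35, Defb41, Defb47, Pate4 and Wfdc11. Defb35 read 17.08 in double-knockout array 1 and 5.76 to 8.54 in the other 11 epiWAT arrays, with 6.27 to 7.71 in ingWAT. Defb41 read 12.72 there and 3.32 to 5.51 elsewhere in epiWAT. Both were over in that 1 array, as were Defb13, Defb15, Defb20 and Defb47, while Defb21 and Defb30 were also over in WT arrays 1 and 2.

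The last set was over in Gipr-/- array 1 alone: Defb19 at 8.73, Defb36 at 10.18 and Wfdc15a at 7.06. In double-knockout array 1 these genes read 4.13, 8.08 and 3.91, none of them 2 log2 units above its highest ingWAT value (4.20, 7.02 and 3.64).

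**Figure D4:**
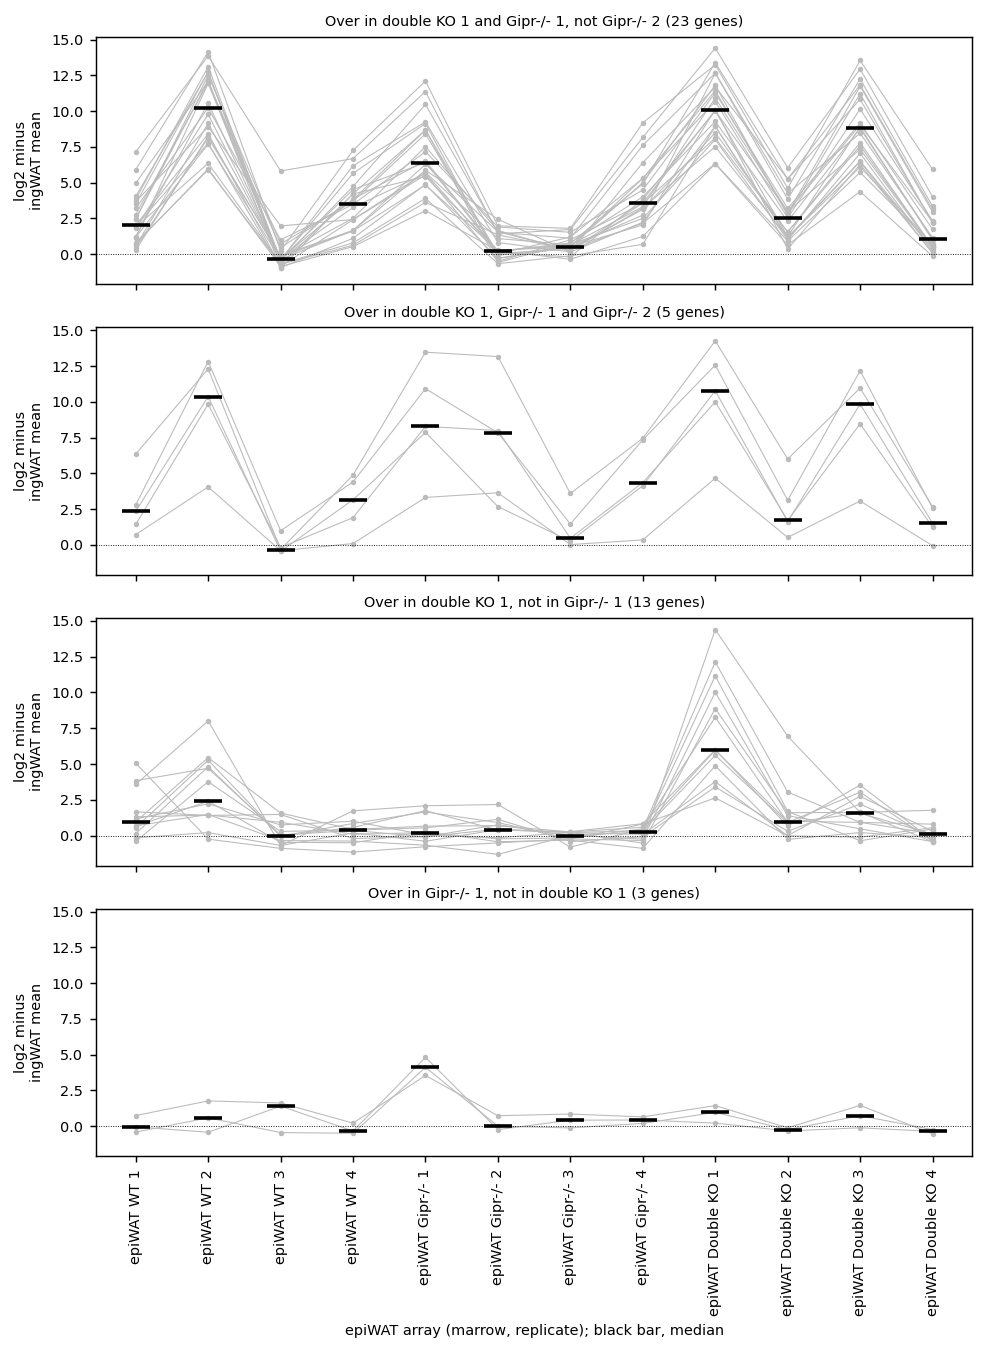
Grey lines give single members and black bars the set's median, as log2 value minus the ingWAT mean, in the 12 epiWAT arrays; the panels are the 4 sets of 23, 5, 13 and 3 members. The sets were defined by these values, so the panels describe them: the second set stands at a median of 7.84 in Gipr-/- array 2, and the set of 13 at 6.00 in double-knockout array 1 and 0.20 in Gipr-/- array 1.

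The 2 arrays with the highest member means also differed from each other. Gpx5 was 14.64 log2 units higher in double-knockout array 1 than in WT array 2, Defb35 8.54, Defb41 7.46 and Defb21 6.46. In the other direction the difference of double-knockout array 1 minus WT array 2 was -2.17 for Pate4, -2.08 for Pate3 and -1.91 for Defb26. Each of these is a difference between 2 single arrays of different marrow, with no replicate.

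The members lie in 12 groups along the genome when a gap of more than 1000000 bases in RefSeq's gene table (GRCm38.p6) opens a new group, and the 4 sets did not follow these groups. A run of 11 Defb genes from Defb23 to Defb25 on chromosome 2 held 9 members over the ingWAT range in 3 of the sets. The 14 Wfdc genes from Wfdc5 to Wfdc3 on the same chromosome held 10 in all 4 sets, and Wfdc15a and Wfdc15b, adjacent among the members, were in different sets. Serpina16 and Serpina1f on chromosome 12 and Defb47 and Defb43 on chromosome 14, the other adjacent pairs whose sequences are shown above, were split in the same way.

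On chromosome 8 the 12 Defb genes from Defb40 to Defb7 held 4 over (Defb40, Defb38, Defb39 and Defb14), whereas 8 of the 10 from Defb33 to Defb13 were over. The 10 Pate genes on chromosome 9 held 4 over, which were next to each other. The 3 Wfdc genes of chromosome 11, Wfdc17, Wfdc18 and Wfdc21, held 0. Close relatives such as Wfdc6a and Wfdc6b can share probe sequence, and whether a signal of 1 reached the other was not tested. Their values were 12.84 and 12.04 in WT array 2 and 12.63 and 14.62 in double-knockout array 1.

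Many other genes known from the epididymal epithelium were also over in the arrays where members were. Of 31 such genes listed, 28 were measured and 18 were over the ingWAT range in at least 1 epiWAT array (7.19% of all genes). Their mean above ingWAT was 1.84, 4.08, 0.37 and 1.11 in the WT arrays, 2.14, 0.73, 0.14 and 1.24 in the Gipr-/- arrays and 5.73, 1.47, 2.77 and 0.45 in the double-knockout arrays, against -0.27 to 0.73 in ingWAT. The highest and the lowest arrays were the same as for the members' mean in all 3 groups. Lcn5, an epididymal retinoic acid-binding protein, read 15.12 in WT array 1, 16.46 in WT array 2, 19.31 in double-knockout array 1 and 13.46 in double-knockout array 2, but 5.73 in Gipr-/- array 1 (4.12 to 7.88 in ingWAT). It was thus high in the 3 arrays with high Gpx5 and in WT array 2. Spink11, a serine protease inhibitor, read 17.72 in double-knockout array 1 and 14.83 in WT array 2, and Lcn12, a lipocalin, 16.59 and 14.45. The list was not uniform: 10 of the 28, among them Lcn6, Lcn8, Lcn9 and Lcn10, were over in no array. Chosen after its values were seen, the defensin-like gene Spag11b read 11.49 in WT array 3, where 1 member was over, and 5.09 in WT array 2, where 34 were. Its highest values were 11.92 in double-knockout array 3 and 11.87 in double-knockout array 1, where 31 and 41 members were over. Cst12, a cystatin likewise chosen, was over in Gipr-/- array 1 alone, at 7.53.

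Outside the members, the genes most like the mean of Gpx5, Adam7, Serpina16 and Serpina1f were found by Pearson's r over the 12 epiWAT arrays. The 15 highest, from r = 0.97 to r = 0.931, were Rnase12, AY761185, C4bp, Atp6v1b1, Rnase9, BC048679, Slc66a2, Gm6040, Fdft1, Nup210, Lcn12, Cpne5, Arfgef3, Clcn5 and Tfap2b. Of these, 10 were over the ingWAT range. Rnase9 and Rnase12 are epididymal members of the ribonuclease A family, and Rnase9 read 18.21 in double-knockout array 1 and 14.81 in WT array 2. The arrays fall into high and low ones, and these values describe likeness only.

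Genes of simple epithelia in general (13 of 14 measured were over in at least 1 array) had means above ingWAT of 0.24, 4.96, 2.50 and 0.51 in the WT arrays, 3.87, 3.08, 0.02 and 2.10 in the Gipr-/- arrays and 5.75, 0.47, 4.51 and -0.17 in the double-knockout arrays (-0.61 to 1.16 in ingWAT). They were highest in double-knockout arrays 1 and 3 and WT array 2, as the members were. In WT array 3, however, 5 of the 14 were over beside 1 member: the keratins Krt8, Krt18 and Krt19 read 10.11, 8.63 and 8.55 there, the adhesion protein gene Epcam 8.60 and the transcription factor gene Ehf 7.92. In double-knockout array 2 and WT array 1, by contrast, 0 of the 14 were over beside 10 and 11 members.

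Of 7 measured regulators of epididymal tissue, 2 were over, Pax8 and Esr1. Pax8 read 12.96 in WT array 2, 13.32 and 12.40 in double-knockout arrays 1 and 3, 10.43 and 9.92 in Gipr-/- arrays 1 and 2, 8.90 in WT array 3, and 3.71 to 5.12 in ingWAT. Esr1 read 9.31 in double-knockout array 3, 8.67 in WT array 3 and 6.37 in double-knockout array 1 (6.53 to 7.29 in ingWAT). For the other regulators, highest epiWAT minus highest ingWAT value ran from -1.36 (Cebpb) to 1.79 (Hoxa11). The regulators' means were -0.27 to 1.22 in epiWAT and -0.26 to 0.24 in ingWAT. Of 10 genes of clear and basal cells of the epididymal duct, 3 were over: Atp6v1c2 (10.42 in WT array 2), Foxi1 (8.38 in double-knockout array 1) and Slc9a3 (11.17 in double-knockout array 3). The keratins Krt5, Krt14 and Krt15, from the same list, went the other way. Their highest epiWAT minus highest ingWAT values were -4.14, -3.67 and -3.77, with ingWAT values up to 11.35, 11.15 and 9.37. For the remaining genes, Trp63 and Itga6 among them, this difference was 0.04 to 1.68. The means of that list were -1.0 to 1.59 in epiWAT and -0.88 to 1.29 in ingWAT and so overlapped between the depots.

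Of 16 sperm and testis germ cell genes, 15 were over, all 15 of them in Gipr-/- array 1, where Prm1 and Prm2, the protamines of sperm chromatin, read 16.05 and 16.07 and Ldhc, the sperm lactate dehydrogenase, 15.09. Their mean above ingWAT was 7.65 there, 3.80 in WT array 2, 2.73 in double-knockout array 1 and 2.47 in WT array 1, and -0.10 to 2.03 in the other 8. Of 10 smooth muscle genes, 8 were over, and their mean was 6.44 in Gipr-/- array 2, 6.02 in Gipr-/- array 1, 5.89 in double-knockout array 1, 2.81 in Gipr-/- array 4 and -0.36 to 1.77 in the rest. Actg2, the smooth muscle actin of hollow organs, read 17.95 in Gipr-/- array 2 beside 5 members over, and 9.75 in WT array 2 beside 34.

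Of 11 seminal vesicle and prostate genes, 3 were over, all 3 of them in WT array 2. Svs2 and Svs5, secreted proteins of the seminal vesicle, read 9.99 and 7.73 there, against at most 6.30 and 4.10 in the other 11 epiWAT arrays. Ceacam10, from the same list, read 11.33 there but was also over in 5 other arrays, at 13.11 and 12.99 in double-knockout arrays 1 and 3 and 11.07, 7.35 and 7.61 in Gipr-/- arrays 1, 2 and 4. The mean of that list was 1.79 in WT array 2 and -0.42 to 0.36 in the others. WT array 2 is also where Pate1 to Pate4 were highest. What part seminal vesicle RNA has in those values was not tested.

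Mesothelium genes (7 of 9 over) had means above ingWAT of 1.31 to 3.34 in the 12 epiWAT arrays, and stood at 3.34 in WT array 3, where 1 member was over. Upk3b, a mesothelial surface protein, read 7.48 to 12.21 in epiWAT. Krt19, at 8.55 in WT array 3, is in both this list and that of simple epithelia. None of the 11 adipocyte genes was over (0 of 11), and their mean was lowest in double-knockout array 1 at -1.71, then in Gipr-/- array 1 at -0.74 and double-knockout array 3 at -0.55, and reached 0.30 in WT array 4. The 11 macrophage genes had their 3 lowest means in double-knockout array 1 (-0.71), WT array 2 (0.07) and double-knockout array 3 (0.17), the 3 arrays in which the members' mean was highest, and lay between 0.31 and 2.38 in the other 9. Trem2, a receptor of lipid-associated macrophages, read 6.29, 6.06 and 7.31 in those 3 arrays and 6.02 to 9.25 in the other 9. What part RNA of other tissues has in the macrophage and adipocyte values was not tested.

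**Figure D5:**
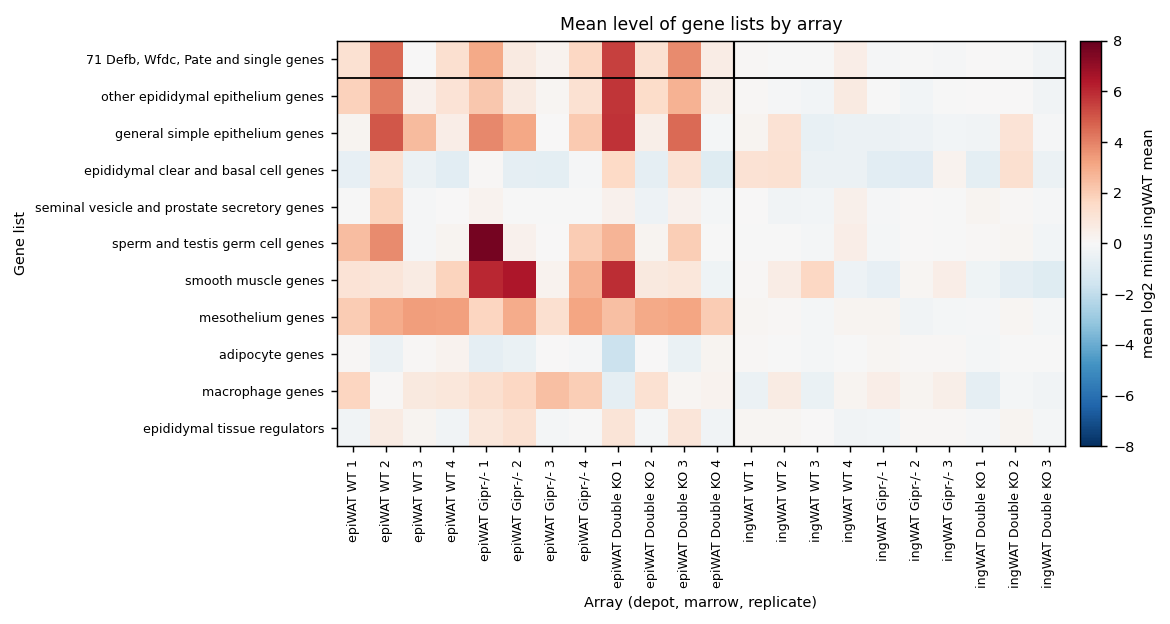
Each cell's colour is a list average of how far its genes lie above their ingWAT means (log2 units), for the 71 members (top row) and 10 marker lists in each of the 22 arrays. The members and the other epididymal genes share their high arrays, germ cell genes peak in Gipr-/- array 1 at 7.65 and smooth muscle genes in Gipr-/- array 2 at 6.44.

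The kinds of marrow were then compared within each depot with limma over the 14502 genes left after the 25% with the lowest mean were dropped, at a Benjamini-Hochberg adjusted p of 0.05. Of the members, 58 of 71 entered the fit in epiWAT and 36 of 71 in ingWAT, so the members in the ingWAT fit are those with the higher values there. All 3 comparisons of a depot share samples with one another. Whether every array comes from its own mouse is not said in the labels, and the p-values then cover only how these samples vary.

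In epiWAT 0 members passed in any of the 3 comparisons, where 0.0% of genes passed in each. At an unadjusted limma p under 0.05 there were 0 members of 1052 genes for Gipr-/- against WT, 2 of 1555 for double-knockout against Gipr-/- and 2 of 444 for double-knockout against WT. The member differences had a median of -0.53, 1.70 and 1.17 in these comparisons, beside medians of -0.02, 0.00 and -0.02 over all genes. These medians rested on single arrays. The first was 0.43 without WT array 2 and 0.05 with array weights, and ran from -1.15 (without WT array 3) to 0.43 when each array was left out. The second ran from 0.47 (without double-knockout array 1) to 2.58 (without double-knockout array 4), and the last from 0.05 (without double-knockout array 1) to 2.59 (without WT array 2).

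Gpx5 had the largest of these differences among the single genes. Its epiWAT mean was 10.73 ± 6.01 (SD, n = 4) with double-knockout and 4.08 ± 0.24 (SD, n = 4) with Gipr-/- marrow, a difference of 6.65 (SE 2.39, limma adjusted p = 0.345), and against WT marrow it was 5.49 (SE 2.39, limma adjusted p = 0.999). Without double-knockout array 1 these differences were 3.91 and 2.76, and leaving out each array gave 3.91 to 8.17 and 2.76 to 7.01. The groups with double-knockout and Gipr-/- marrow did not overlap for Gpx5 and Defb47, which made 2 of 58 members where 6.05% of genes did not overlap. For Gipr-/- against WT marrow that held for 1 member, Defb20 (5.04% of genes), and for double-knockout against WT for 1 member, Defb33 (2.32%). These shares lie near or below those of all genes.

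Adam7 differed by -2.71 (SE 2.84, limma adjusted p = 0.89) between Gipr-/- and WT marrow, and by 3.68 (SE 2.84, limma adjusted p = 0.659) between double-knockout and Gipr-/- marrow. Serpina1f differed by 3.62 (SE 3.11, limma adjusted p = 0.865) and by -0.95 (SE 3.11, limma adjusted p = 0.935) in the same comparisons. With standard errors of 2.39 to 3.17 for the 4 single genes, differences between marrows of several log2 units were not detectable in epiWAT. The sign changed for some of these genes when 1 array was left out: without WT array 1 the Gpx5 difference between Gipr-/- and WT marrow was 0.298 in place of -1.16, and without double-knockout array 1 the Adam7 difference between double-knockout and WT marrow was -0.711 in place of 0.973.

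In ingWAT 0 members passed either, where 0.234% of genes passed for Gipr-/- against WT, 3.48% for double-knockout against Gipr-/- and 0.0% for double-knockout against WT. At an unadjusted limma p under 0.05 there were 4, 3 and 2 members of 2180, 2745 and 1958 genes. Serpina1f came nearest. It read 5.24, 5.21, 5.05 and 6.70 in the WT arrays, 3.50, 3.62 and 3.82 in the Gipr-/- arrays and 3.91, 4.42 and 3.79 in the double-knockout arrays, so every WT array was above every other ingWAT array. The difference was -1.90 (SE 0.39, limma adjusted p = 0.0566) for Gipr-/- against WT and -1.51 (SE 0.39, limma adjusted p = 0.135) for double-knockout against WT. Without ingWAT double-knockout array 2 the first of these had a limma adjusted p of 0.0364. All ingWAT values of Serpina1f except the 6.70 of WT array 4 were low, below the lowest median of any array, 6.11.

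Groups did not overlap in ingWAT for 3 members for Gipr-/- against WT (15.4% of genes), for 4 for double-knockout against Gipr-/- (22.3%) and for 2 for double-knockout against WT (11.0%), out of 36 tested. In the second comparison these were Defb30, Defb33, Defb34 and Wfdc17. Wfdc17 read 6.40, 7.50 and 7.68 with double-knockout and 8.25, 8.59 and 8.0 with Gipr-/- marrow, a difference of -1.09 (SE 0.54, limma adjusted p = 0.307). The member differences in ingWAT had medians of -0.20, 0.01 and -0.29, beside 0.03, -0.03 and -0.01 over all genes. Without ingWAT WT array 4 they were 0.01, -0.06 and -0.08.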

How the data were processed

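The authors deposited 1 table of log values for 21793 features and 22 arrays, read here as log2. Partek 6.6 is named per the submitters' processing notes; its role, the base of the log and the normalization are not given in the sources used here, and every fold printed depends on the log2 reading. Each labelling started with 100 ng of RNA, per the labels' protocols. Values ran from 1.92 to 19.9 and array medians from 6.11 to 6.54; arrays of a group correlated with r of 0.911 to 0.984, and 0 pairs were identical. Precision depends on how many arrays a group has. The platform annotation named 1 gene for 19341 features, 2452 are unnamed here, and for 4 genes with 2 features the one with the higher mean was kept.

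Groups came from the labels. Marrow kinds were compared per depot with limma 3.58.1 (lmFit, eBayes with trend) in R 4.3.3, 3 groups in one fit, two-sided; the fit was tested on simulated data. Named were the 4 single genes, members past the threshold and the 15 genes most alike. In each family the 6 members with the largest and the 2 with the smallest difference between highest epiWAT and highest ingWAT value were named. The 3 leading genes of each marker list were named, but only some of them for smooth muscle, mesothelium and macrophages. Others named, such as those in the 4 sets of members, were chosen after their values were seen. The members and gene lists were chosen with earlier results of these data known. Alternatives were no filter, a filter on the highest array, quantile normalization, all 22 arrays in one fit, array weights, leaving out each array, and margins of 1 and 3 log2 units. Genes listed but not found in the table were not analysed here.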

Additional observations from a re-analysis of the deposited data

Results flagged for a closer look

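In 6 of 132 checks of a group of 4 arrays, 1 array stood apart by Dixon's criterion (its gap to the nearest value against the group's range); chance flags about 1 in 20 groups. Adam7 was high in epiWAT WT array 2, at 17.54 against 9.50 to 10.84 in the other 3. Gpx5 was high in epiWAT WT array 1, at 9.61 against 3.40 to 4.30. Pate10 was high in epiWAT WT array 2, at 5.69 against 2.55 to 3.07. In ingWAT, Serpina1f was high in WT array 4, at 6.70 against 5.05 to 5.24, and Pate11 was high in WT array 3, at 4.73 against 3.46 to 3.66. The mean of the 4 single genes above the ingWAT mean was also high in ingWAT WT array 4, at 1.54 against 0.12 to 0.28.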

How the results depend on the processing

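With limma array weights, 1 member passed in ingWAT for Gipr-/- against WT marrow and 1 for double-knockout against WT (Serpina1f in both), and 2 for double-knockout against Gipr-/- (Defb33 and Wfdc21). Leaving out 1 array in turn gave 0 to 1 members for Gipr-/- against WT (Serpina1f) and 0 to 1 for double-knockout against Gipr-/- (Wfdc21, adjusted p = 0.0377 with limma), both without ingWAT double-knockout array 2; epiWAT stayed at 0 in every alternative run. The genes called in ingWAT moved more: 401, 1797 and 555 with array weights, 99, 484 and 141 with all arrays in one fit, 9, 378 and 4 with quantile normalization, and 274, 1382 and 620 without ingWAT double-knockout array 2, for Gipr-/- against WT, double-knockout against Gipr-/- and double-knockout against WT, in place of 34, 505 and 0; leaving out each array gave 0 to 274, 49 to 1382 and 0 to 620. In epiWAT, array weights gave 26 for Gipr-/- against WT in place of 0. The count of 44 members over the ingWAT range was 46 with a margin of 1 log2 unit. It was 44 with 3 log2 units or with quantile normalization, 47 against the ingWAT mean and 25 without 4 epiWAT arrays. Defb13, Defb15, Defb20, Defb35, Defb41 and Defb47 were over in epiWAT double-knockout array 1 alone. Defb19, Defb36 and Wfdc15a were over in epiWAT Gipr-/- array 1 alone, so leaving out either array lowers the count. As a median over the members, the array summaries were 2.40 in WT array 2 and 0.66 in Gipr-/- array 1.

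Signs turned in epiWAT as follows. The median of the member differences for Gipr-/- against WT, -0.53, was -0.21 without the filter, 0.05 with array weights and 0.43 without WT array 2. Leaving out 1 array gave Gpx5 differences of -1.77 to 0.298 and Serpina16 differences of -2.05 to 2.47 for Gipr-/- against WT, Serpina1f differences of -2.89 to 0.986 for double-knockout against Gipr-/-, and Adam7 differences of -0.711 to 2.80 for double-knockout against WT. Array weights gave 1.86 for Serpina16 in the first comparison. The cause was not tested. No paired analysis was possible because the labels carry no replicate numbers shared between groups.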
